A study of Mus musculus with 6 samples.

Results

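The genes described here are 41 interferon-stimulated genes, taken by gene symbol from a fixed list, and all 41 were found among the 20594 genes of the FPKM table. FPKM is the number of sequenced fragments scaled to transcript length and to the total of mapped fragments. The RNA came from colon of C57BL/6J mouse offspring aged 3 weeks, in 3 control libraries whose dams received 0% dextran sulfate sodium (DSS) and 3 maternal DSS libraries whose dams received 1.5%. This sulfated polysaccharide damages the gut epithelium and serves as a chemical model of colitis. The dams' exposure ran between embryonic days 13 and 19 per the labels, or for 5 days per the series design. The sample titles speak of 3 offspring without saying whether each library pools them, and the labels give no litter, dam or sex, so the p-values below measure the spread between libraries, and a shared dam cannot be told apart from the exposure.

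Interferons are secreted proteins, and cells make those of type I and type III on sensing viral or microbial nucleic acid. Type I interferon and the epithelial type III interferon signal through a complex with STAT2 and IRF9 that binds the interferon-stimulated response element, whereas the response to interferon gamma acts through the gamma-activated site. The genes they induce encode sensors of foreign RNA, proteins that block viral translation and replication, GTPases that attack the vacuoles of intracellular pathogens, and the proteasome subunits and peptide pump that feed MHC class I. In the gut these genes are transcribed at a low constant level in epithelium and in immune cells.

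The colonocyte gene Car1 was high in all 6 libraries, at 4528 to 7277 FPKM, as the colon label would have it. The epithelial gene Epcam, which is not particular to colon, had between 583 and 686. Whether the libraries hold the same stretch of gut was not tested. The libraries did not differ by group alone. The summed FPKM of 12 macrophage markers was 153, 180 and 261 in controls 1, 2 and 3 against 155, 257 and 340 in maternal DSS 1, 2 and 3, and that of 11 small intestine and Paneth cell markers was 120, 86 and 201 against 125, 526 and 553. Control 3, maternal DSS 2 and maternal DSS 3 stood above the other libraries for the macrophage sum and for 10 of its 12 markers. For the small intestine list the sum of control 3 was high through 1 gene, Reg3g. The other 10 markers summed to 63.4, 66.9 and 56.3 in controls against 78.4, 193 and 172, a sum high in maternal DSS 2 and 3 alone. Taken gene by gene, 6 of the 11 markers were higher in control 3, maternal DSS 2 and maternal DSS 3 than in the other libraries. Reg3g, Lyz1 and Itln1 were among them. In bulk tissue, fewer cells of a type and less RNA per cell cannot be told apart.

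The response element was common in promoters of the members. A RefSeq promoter (250 bases before to 50 after the start site, GRCm38.p6) was listed for 31 of the 41 members, and 19 of these 31 (61.3%) held the response element core (GAAA, then NN, then GAAA, with N any base) on either strand, against 3.99% of 27025 genes with a listed promoter. The gamma-activated site core TTCNNNGAA, which reads the same on both strands, was in 8 of 31 (25.8%) against 9.55%, and 5 members (16.1%) held both, against 0.614%. The promoters with both were those of Oas1a, Bst2, Igtp, Irgm2 and Gbp7. A match is a description of the letters and not evidence of binding.

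The upstream windows of 60 bases below are those of 6 of the 8 members whose groups did not overlap, and of Igtp, with the response element core in capitals. Upstream here means before the start site of the listed promoter. For Ifit3 and Ifit3b this site and the window lie inside the RefSeq span of the gene. Ddx58 is not shown because its core lies after the start site, and Parp14 had no listed promoter. They are printed 5′ to 3′ on the strand of the gene. The first set is from genes with higher values in the maternal DSS libraries, on chr19:34583382-34583441 (plus strand) for Ifit3, chr19:34607778-34607837 (plus strand) for Ifit3b and chr8:71537562-71537621 (minus strand) for Bst2.
Ifit3: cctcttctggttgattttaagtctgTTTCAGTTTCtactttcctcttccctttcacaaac
Ifit3b: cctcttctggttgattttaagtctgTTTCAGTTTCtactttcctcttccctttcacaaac
Bst2: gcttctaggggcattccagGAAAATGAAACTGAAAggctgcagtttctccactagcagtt
The windows of Ifit3 and Ifit3b were identical, and their promoters shared a run of 169 identical bases. The second set is from GTPase genes with lower values in the maternal DSS libraries, with Igtp as the neighbour of Irgm2, on chr11:48871421-48871480 (minus strand) for Irgm1, chr11:58214888-58214947 (plus strand) for Irgm2, chr11:58199496-58199555 (plus strand) for Igtp and chr3:142530258-142530317 (plus strand) for Gbp7.
Irgm1: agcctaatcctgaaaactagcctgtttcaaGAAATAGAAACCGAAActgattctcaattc
Irgm2: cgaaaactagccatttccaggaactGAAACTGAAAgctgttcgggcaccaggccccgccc
Igtp: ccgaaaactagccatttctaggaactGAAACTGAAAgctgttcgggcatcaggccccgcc
Gbp7: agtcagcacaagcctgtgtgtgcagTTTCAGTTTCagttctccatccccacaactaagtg
The promoters of Irgm2 and Igtp shared a run of 61 identical bases.

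No single interferon-stimulated gene differed by exposure once p-values were adjusted, and fold changes of the members were small and of both signs. Of the 41 members, 37 reached an FPKM of 1 in at least 3 libraries and were tested with limma on log2(FPKM + 1), with Benjamini-Hochberg adjustment over all 13594 genes tested. None of the 37 had an adjusted p under 0.05, as for all genes tested (0% called), and the smallest adjusted p of a member was 0.62. By limma, 7 of the 37 (18.9%) had an unadjusted p under 0.05, against 7.83% of all genes. The log2 fold change (maternal DSS minus control) was positive in 21 of 37 members (56.8%), against 40.3% of all genes tested, and its median was 0.03, against -0.04 over all genes. This majority turned with TPM scaling (11 of 40 positive, members' median -0.07, all genes -0.14). It also turned without control 3 (15 of 37, members' median -0.046, all genes -0.060) and without maternal DSS 2 (15 of 37, -0.072 against -0.025). Without control 2 and without maternal DSS 3, 18 and 16 of 37 were positive (members' medians -0.0064 and -0.029, all genes -0.027 and -0.026). The share of all genes that was positive was not counted in these fits. Members ranged from -0.35 for Parp14 to 0.36 for Ifi27l2a, and changes on this scale understate those of low genes.

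Among the 7 with an unadjusted p under 0.05, the antiviral genes Ifit3 and Bst2 were higher in maternal DSS offspring and Ddx58, Parp14, Irgm1, Irgm2 and Gbp7 were lower. The 2 higher members are 5.41% of those tested, against 2.42% of all genes, and the 5 lower are 13.5%, against 5.41% of all genes. The groups did not overlap in these 7 and in Ifit3b, which makes 3 higher members (8.11%, against 4.92% of all genes) and 5 lower (13.5%, against 9.14%). These are counts of few genes, and no test of the list was made.

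**Figure D1:**
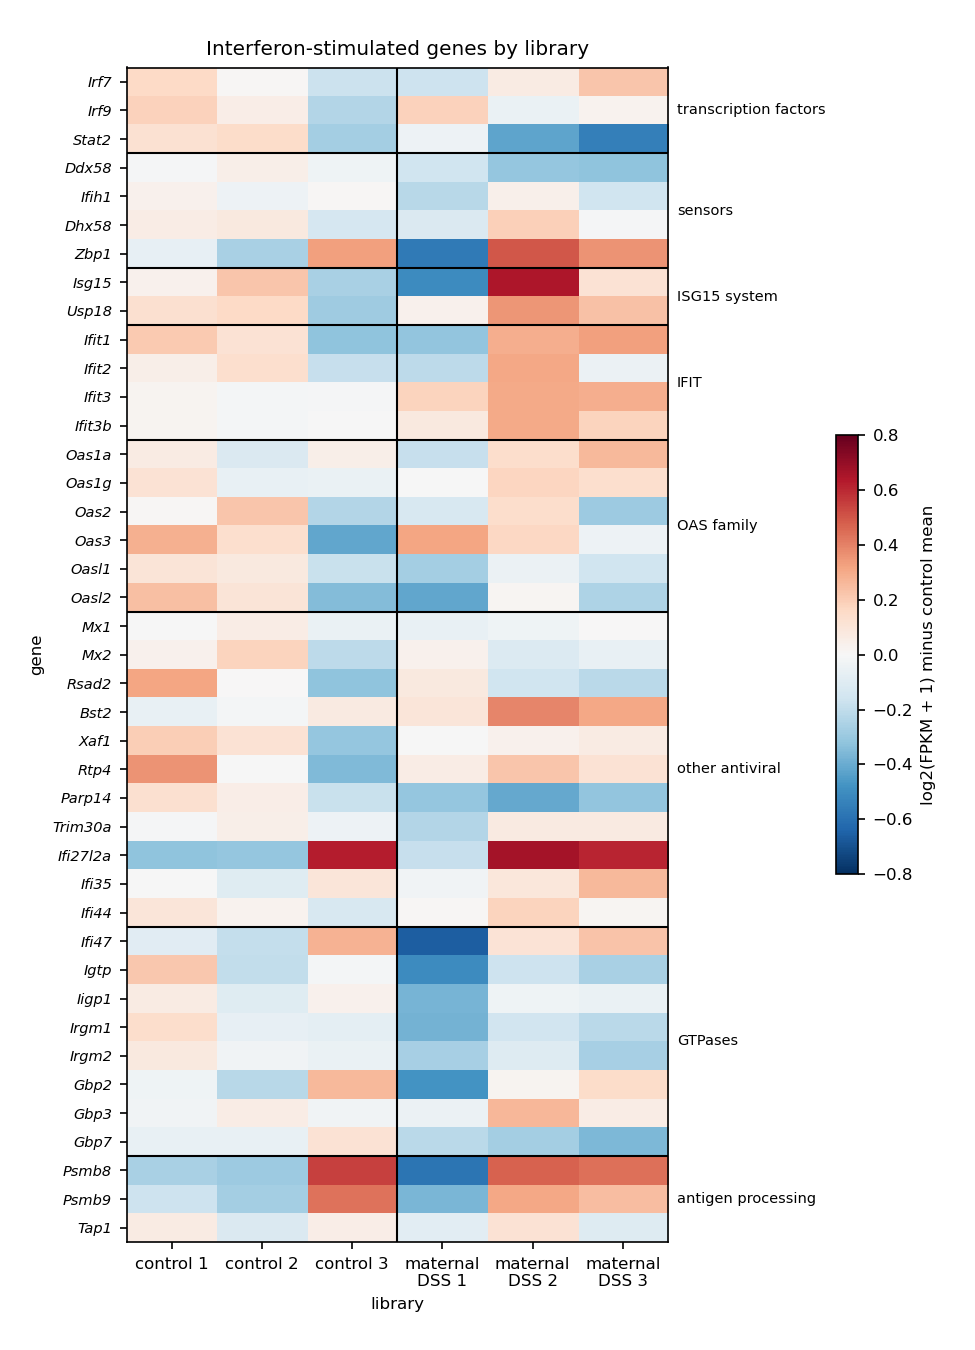
Each row is 1 of the 41 interferon-stimulated genes and each column a library; colour is log2(FPKM + 1) minus the mean of the 3 controls, with genes grouped by role. Maternal DSS 1 is low across the GTPases and antigen processing genes, and Ifi27l2a, Zbp1, Psmb8 and Psmb9 are high in control 3, maternal DSS 2 and maternal DSS 3.

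None of the 3 transcription factor genes of the response passed the unadjusted threshold with all 6 libraries. Irf7, which encodes the factor that amplifies type I interferon production and which had the highest mean FPKM of all members (36.6; chromosome 7, 141263183 to 141266499), had 40.2, 36.2 and 31.8 FPKM in controls 1, 2 and 3 against 31.9, 37.6 and 42.0 in maternal DSS 1, 2 and 3. The groups overlapped, with the highest value in maternal DSS 3 and the lowest in control 3 (log2 fold change 0.04, SE 0.13). Irf9, a DNA-binding part of the complex that acts on the response element, had between 8.19 and 11.3 FPKM in both groups together (log2 fold change 0.05). Stat2, its partner, had 7.66, 7.81 and 5.58 in controls against 6.71, 4.92 and 4.44 (log2 fold change -0.34, SE 0.17, unadjusted p = 0.081 in limma). Control 3 lay with maternal DSS 2 and 3 on the low side, so the groups overlapped. Stat2 had an unadjusted p under 0.05 in limma without control 3 and without maternal DSS 1.

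Among the sensors of foreign nucleic acid, Ddx58 was lower in all 3 maternal DSS libraries and the others were not separated by group. Ddx58 encodes RIG-I, a cytosolic sensor of viral RNA ends (chromosome 4, 40203777 to 40239825), and had 5.61, 5.88 and 5.50 FPKM in controls against 4.96, 4.38 and 4.32. Means were 5.66 ± 0.197 and 4.56 ± 0.354 FPKM (SD, n = 3 each), with a log2 fold change of -0.26 (SE 0.09, unadjusted p = 0.017, adjusted p = 0.62 in limma). Ifih1, which encodes the long double-stranded RNA sensor MDA5, had 12.6, 11.9 and 12.3 FPKM in controls against 10.4, 12.6 and 10.8, and its groups overlapped because maternal DSS 2 was as high as control 1. Dhx58, for the related regulator LGP2, had values between 2.34 and 3.19 FPKM.

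Zbp1, for a sensor of Z-form nucleic acid that can trigger necroptosis, followed the libraries rather than the groups. It had 9.55, 8.23 and 12.9 FPKM in controls 1, 2 and 3 against 6.47, 14.6 and 13.2 in maternal DSS 1, 2 and 3. Control 3, maternal DSS 2 and maternal DSS 3 were above the other 3 libraries. The log2 fold change was 0.10 (SE 0.29), and 0.43 without maternal DSS 1.

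Genes of the ISG15 system, a ubiquitin-like modifier and its removing enzyme, varied widely within each group. Isg15 itself (chromosome 4, 156199424 to 156200818) had 9.82, 11.3 and 7.80 FPKM in controls against 6.45, 15.5 and 10.4 in maternal DSS 1, 2 and 3. Maternal DSS 1 and 2 were thus its lowest and highest libraries, and the log2 fold change of 0.09 (SE 0.28) became 0.38 without maternal DSS 1 and -0.19 without maternal DSS 2. Usp18, the protease that removes ISG15 and restrains the type I receptor, had 1.89, 1.96 and 1.17 FPKM against 1.71, 2.38 and 2.12 (log2 fold change 0.21, SE 0.15).

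All 4 IFIT genes, which encode proteins that bind foreign RNA and block its translation, had positive fold changes, against 40.3% of all genes. Those of Ifit1 (0.10, SE 0.21) and Ifit2 (0.02, SE 0.15) were smaller than their SE. The groups did not overlap in 2 of the 4 (50%, against 4.92% of all genes higher), Ifit3 and Ifit3b, which share sequence. Ifit3 (chromosome 19, 34583119 to 34588982) had 5.09, 4.94 and 4.96 FPKM in controls against 5.78, 6.38 and 6.35. Means were 5.00 ± 0.0808 and 6.17 ± 0.339 FPKM (SD, n = 3 each), with a log2 fold change of 0.26 (SE 0.08, unadjusted p = 0.013, adjusted p = 0.62 in limma). Ifit3b, the neighbouring copy (chromosome 19, 34607530 to 34613403), had 2.21, 2.12 and 2.15 FPKM against 2.34, 2.91 and 2.57 (log2 fold change 0.19, SE 0.09, unadjusted p = 0.087 in limma).

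All 3 maternal DSS libraries were above all 3 controls for both copies, which are not independent measurements. Of the 75-base stretches of the longest Ifit3 transcript, 41.1% also occur in Ifit3b, so reads can be split between them and their single values are uncertain. Ifit1 and Ifit2 lie in the same cluster on chromosome 19. Ifit1 had 11.4, 10.7 and 7.59 FPKM against 7.62, 12.2 and 12.5, and Ifit2 3.57, 3.86 and 2.90 against 2.83, 4.48 and 3.29. For both, control 3 and maternal DSS 1 were the low libraries and the groups overlapped.

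The OAS family makes or relates to the synthesis of 2-5A, the messenger that activates RNase L, and none of its members separated the groups. Oas1a (chromosome 5, 120896256 to 120907544) had 23.9, 20.95 and 23.6 FPKM in controls against 19.9, 25.2 and 27.5 (log2 fold change 0.07, SE 0.12). Oas1g, with which it shares 47.6% of its 75-base stretches, had values between 10.1 and 12.0 FPKM, so both are uncertain as single genes. Oas3 had 3.32, 2.90 and 1.66 against 3.43, 2.98 and 2.45 FPKM, with control 3 lowest. The OAS-like gene Oasl2 had 15.7, 14.2 and 10.1 against 9.60, 13.3 and 10.9 FPKM (log2 fold change -0.21, SE 0.17), and its neighbour Oasl1 12.3, 12.1 and 9.97 against 9.27, 10.99 and 10.1. In both, control 3 was low and overlapped the maternal DSS libraries. Oas2 had between 0.502 and 1.14 FPKM and was not tested.

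Of the other antiviral effectors, Bst2 was higher and Parp14 lower in every maternal DSS library than in every control. Bst2 encodes tetherin, which holds budding virus on the cell surface (chromosome 8, 71534255 to 71537472), and had 12.1, 12.5 and 13.3 FPKM in controls against 13.5, 16.8 and 15.8. Means were 12.6 ± 0.610 and 15.4 ± 1.67 FPKM (SD, n = 3 each), a log2 fold change of 0.27 (SE 0.09, unadjusted p = 0.025, adjusted p = 0.62 in limma). The gap between the groups was narrow, since maternal DSS 1 lay just above control 3. Tetherin also marks plasmacytoid dendritic cells. Of the 8 listed markers of these and other dendritic cells, 5 were under 1 FPKM in all libraries, among them Siglech (0.448, 0.673 and 0.427 FPKM in controls against 0.249, 0.265 and 0.397) and Ccr9 (at most 0.191). Irf8, which other immune cells also express, had 15.8, 17.04 and 18.1 FPKM against 17.004, 20.07 and 18.04 and was highest in maternal DSS 2, as Bst2 was. The part of dendritic cells in the Bst2 values was not tested.

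Parp14 encodes an ADP-ribosyltransferase (chromosome 16, 35831892 to 35871518) and had 9.47, 8.93 and 7.47 FPKM in controls against 6.72, 6.22 and 6.70. Means were 8.62 ± 1.04 and 6.55 ± 0.282 FPKM (SD, n = 3 each), and its log2 fold change of -0.35 (SE 0.10, unadjusted p = 0.010, adjusted p = 0.62 in limma) was the most negative among the members. Parp14 was the 1 member with an unadjusted p under 0.05 in all 6 fits that left out 1 library (from 0.0027 to 0.045).

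Ifi27l2a had the largest positive fold change of the members, but without separation of the groups. It encodes a small mitochondrial membrane protein (chromosome 12, 103433873 to 103443680) and had 21.8, 22.02 and 43.2 FPKM in controls 1, 2 and 3 against 24.1, 44.3 and 42.5 (log2 fold change 0.36, SE 0.32). Control 3 was as high as maternal DSS 2 and 3, and maternal DSS 1 as low as controls 1 and 2. Ifi35 had 12.6, 11.7 and 13.5 FPKM against 12.3, 13.5 and 15.2 (log2 fold change 0.11, SE 0.10).

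The remaining antiviral effectors were expressed at lower levels and overlapped between groups. Rsad2, for the antiviral enzyme viperin, had 2.12, 1.51 and 1.00 FPKM against 1.65, 1.24 and 1.16, with its lowest value in control 3. Rtp4 (5.08 to 8.98 FPKM), Xaf1 (2.09 to 3.39) and Trim30a (2.35 to 3.14) had log2 fold changes of 0.13, 0.03 and -0.03. Rtp4 and Xaf1 were also lowest in control 3, and Trim30a in maternal DSS 1. The dynamin-like restriction factor genes Mx1 (0.897 to 1.06 FPKM) and Mx2 (0.198 to 0.563), and Ifi44 (0.627 to 1.01), were below the filter; without a filter on FPKM their log2 fold changes were -0.03, -0.05 and 0.07, and that of Oas2 -0.09.

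**Figure D2:**
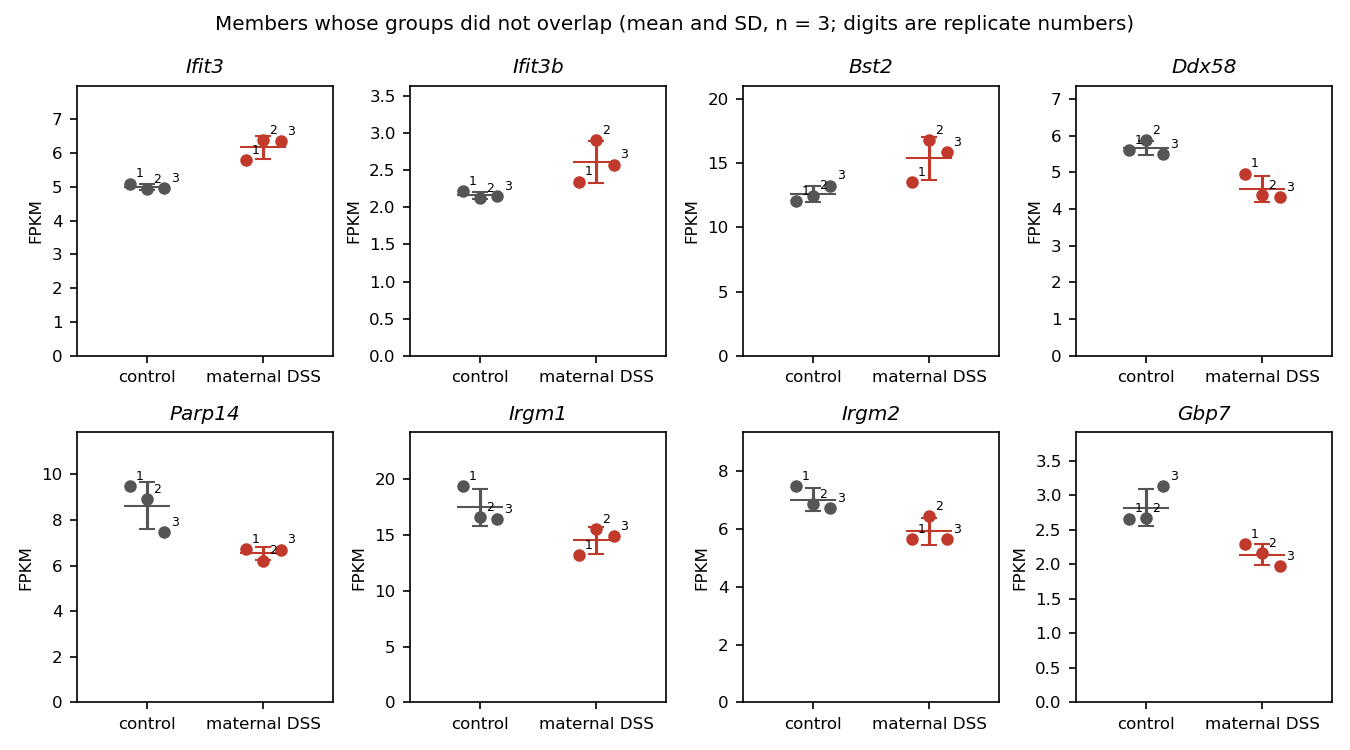
FPKM in each library (points, with replicate numbers) of the 8 members whose groups did not overlap, with the group mean and SD (n = 3 each). Ifit3, Ifit3b and Bst2 are higher and Ddx58, Parp14, Irgm1, Irgm2 and Gbp7 lower in all maternal DSS libraries, and in Bst2 the gap is between 13.3 and 13.5 FPKM.

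The interferon-induced GTPases were the members in which most values lay lower. Of the 8, 7 had negative fold changes and 1 positive (12.5% positive, against 40.3% of all genes). Their median was -0.18, against -0.04 over all genes. At an unadjusted p under 0.05 in limma 3 of the 8 were lower (37.5%), against 5.41% of all genes. The same 3 were lower without overlap, against 9.14% of all genes. The immunity-related GTPase Irgm1, needed in mice for defence against vacuolar pathogens (chromosome 11, 48865245 to 48871420), had 19.3, 16.6 and 16.5 FPKM in controls against 13.2, 15.5 and 14.9. Means were 17.5 ± 1.63 and 14.5 ± 1.22 FPKM (SD, n = 3 each), a log2 fold change of -0.25 (SE 0.10, unadjusted p = 0.035, adjusted p = 0.62 in limma). Irgm2, of the same regulatory subfamily (chromosome 11, 58214977 to 58222783), had 7.48, 6.87 and 6.72 FPKM against 5.66, 6.45 and 5.67 (log2 fold change -0.21, SE 0.09, unadjusted p = 0.043 in limma). For both genes the groups did not overlap, and maternal DSS 1 was the lowest library.

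Gbp7, a guanylate-binding protein gene (chromosome 3, 142530336 to 142550151), was also lower in all maternal DSS libraries. It had 2.66, 2.67 and 3.13 FPKM in controls against 2.29, 2.16 and 1.98 (log2 fold change -0.28, SE 0.10, unadjusted p = 0.021 in limma). Igtp, the third member of the Irgm subfamily and the neighbour of Irgm2, had 6.60, 4.72 and 5.47 FPKM against 3.62, 4.85 and 4.48 (log2 fold change -0.31, SE 0.14, unadjusted p = 0.058 in limma). Control 2 lay within the maternal DSS range for Igtp.

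The other GTPases overlapped between groups and were lowest in maternal DSS 1. Ifi47 had 4.05, 3.72 and 5.53 FPKM in controls against 2.40, 4.80 and 5.29, and Gbp2 9.89, 8.58 and 12.4 against 7.02, 10.3 and 11.4. Both were high in control 3, maternal DSS 2 and maternal DSS 3. Iigp1 had 2.03, 1.71 and 1.96 against 1.24, 1.83 and 1.79 FPKM. Gbp3 was the 1 GTPase gene with a positive fold change (0.09, SE 0.10), at 3.18 to 4.18 FPKM. The mean difference from controls over the 8 GTPase genes was -0.37, -0.04 and -0.09 on the log2(FPKM + 1) scale in maternal DSS 1, 2 and 3, so 1 library carried most of it. Over the controls this mean was 0.04, -0.10 and 0.06.

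**Figure D3:**
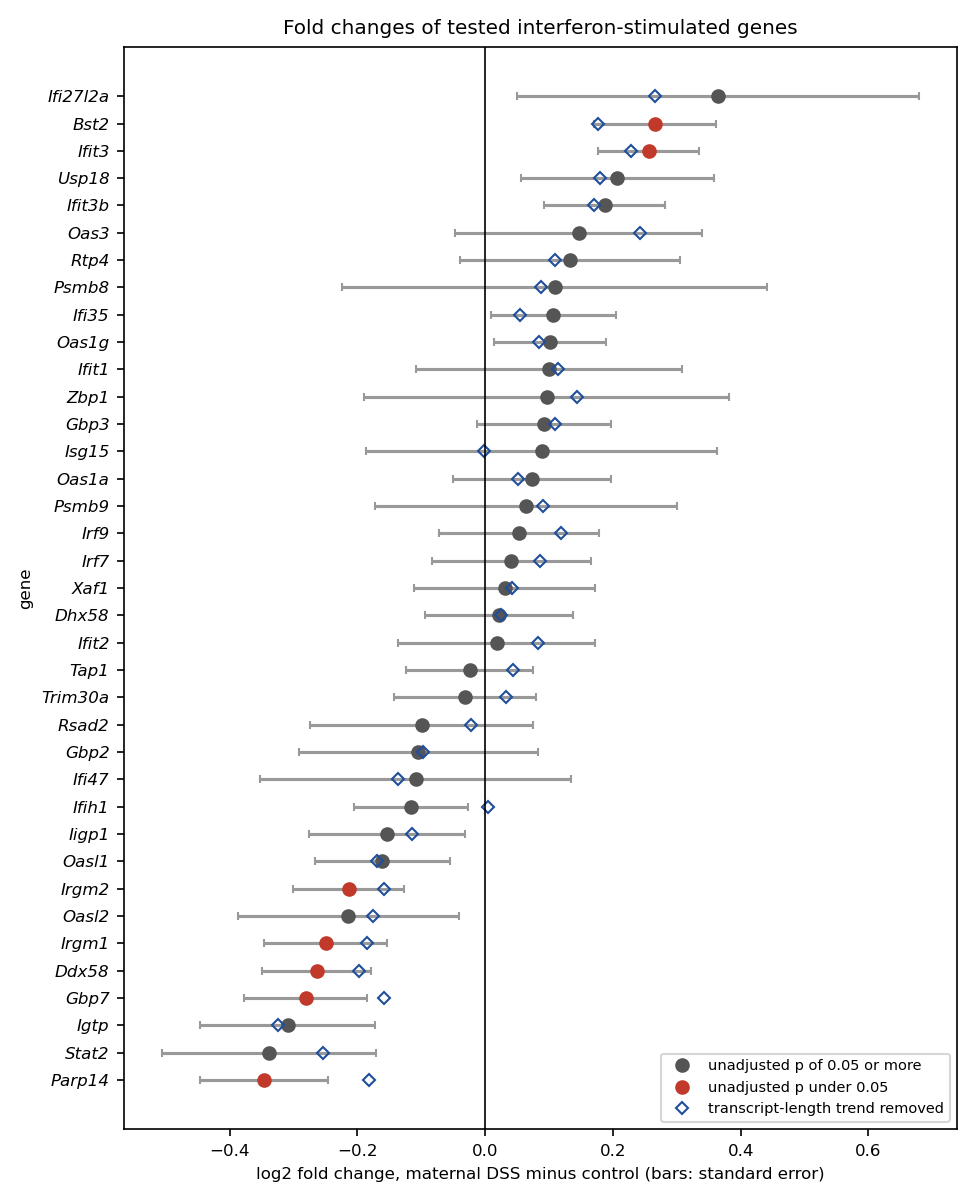
Log2 fold change (maternal DSS minus control, x axis) with its standard error for the 37 tested members; red marks an unadjusted p under 0.05, and open diamonds are the values after each library's trend with transcript length was removed. The 5 lower red genes move toward 0 with the length trend removed, Parp14 from -0.35 to -0.18, while Ifit3 moves from 0.26 to 0.23.

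Among the members with an unadjusted p under 0.05, the lower ones had longer transcripts than the higher ones. This order did not hold for every member, since the longest transcript of Igtp, with a negative fold change, is shorter than that of Oas3, with a positive one. The longest transcripts of the 5 lower members were 3528 to 7417 bases long, with a median of 3874, against a median of 2682 over the tested members and 3158 over all genes tested. Those of the higher members Ifit3 and Bst2 were 1745 and 792 bases. With each library's trend with transcript length removed, an alternative chosen after seeing the data, 2 members were lower at an unadjusted p under 0.05, Ddx58 (log2 fold change -0.20, unadjusted p = 0.013 in limma) and Igtp, against 4.73% of all genes, and Ifit3 and Bst2 remained higher, against 4.39% (0.23, unadjusted p = 0.0075, and 0.18, unadjusted p = 0.039, in limma). Parp14 (-0.18), Irgm1 (-0.18), Irgm2 (-0.16) and Gbp7 (-0.16) no longer passed.

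The antigen processing members split the libraries in a way that crossed the groups. Psmb8 and Psmb9, the immunoproteasome subunits LMP7 and LMP2 that favour peptides suited to MHC class I, lie beside Tap1 on chromosome 17 (34182030 to 34201454 for the 3 genes together). Psmb8 had 11.1, 10.8 and 20.1 FPKM in controls 1, 2 and 3 against 8.64, 19.02 and 18.6 in maternal DSS 1, 2 and 3. Psmb9 had 9.29, 8.57 and 14.6 against 7.95, 13.3 and 12.7. In both, control 3, maternal DSS 2 and maternal DSS 3 were far above the other 3 libraries, and the log2 fold changes between groups were 0.11 (SE 0.33) and 0.06 (SE 0.24). Tap1, for 1 chain of the peptide pump, had 5.13 to 6.19 FPKM in all 6 libraries, with no such split.

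The same split was present in other genes of the MHC class I route. Of 13 further tested genes of antigen processing and MHC class I, 10 were higher in control 3, maternal DSS 2 and maternal DSS 3 than in the other libraries. The light chain gene B2m had 371, 346 and 543 FPKM in controls against 342, 549 and 623, and Psmb10, the third immunoproteasome subunit, 37.3, 36.3 and 50.01 against 35.3, 53.6 and 50.001. The class I heavy chain gene H2-K1 had 341, 319 and 361 against 298, 369 and 415. In the fit by group, none of the 13 had an unadjusted p under 0.05, and 10 had positive fold changes (76.9%, against 40.3% of all genes).

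Over the tested members this split held for 7 of 37 (18.9%), against 13.5% of all genes: Zbp1, Ifi27l2a, Ifi35, Ifi47, Gbp2, Psmb8 and Psmb9. The opposite order, these 3 libraries all below the others, held for 3 of 37 (8.11%; Irf9, Stat2 and Rsad2), against 28.8% of all genes. The pattern was picked out after the values were seen, and it has no test. The summed macrophage markers split the libraries likewise, as did those of T and NK cells (6.38, 5.84 and 9.10 FPKM in controls against 7.11, 12.4 and 10.97), with 8 of their 10 markers. Of the 11 small intestine and Paneth cell markers 6 showed it. The T and NK sums rest on low values, with 5 of 10 markers under 1 FPKM in all libraries, among them Cd3e at 0.203 to 0.438. Of the neutrophil markers, Ly6g split the libraries (39.3, 29.0 and 74.6 FPKM in controls against 22.96, 69.8 and 71.9), while the defining S100a8 and S100a9 had at most 1.26 and 1.69. Summed B and plasma cell markers were high in maternal DSS 2 and 3 alone (205, 156 and 172 FPKM in controls against 204, 814 and 1114). The part of these cells in the values of the members was not tested.

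**Figure D4:**
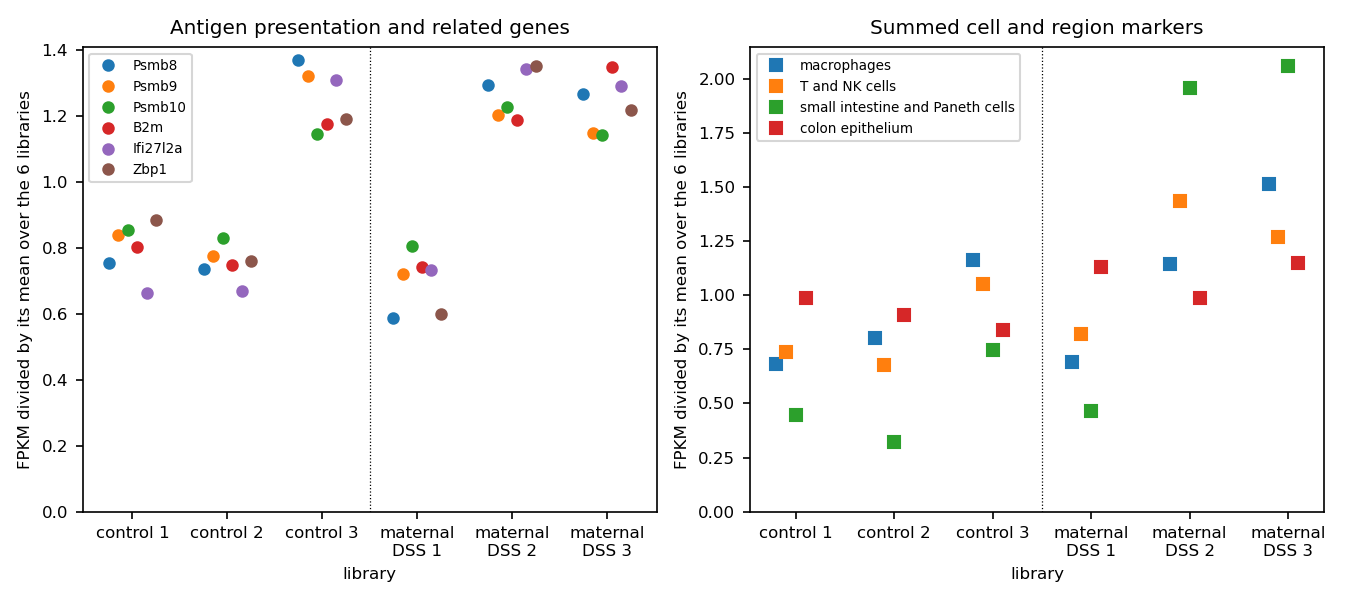
Left, FPKM of Psmb8, Psmb9, Psmb10, B2m, Ifi27l2a and Zbp1 in each library, divided by the gene's mean over the 6 libraries; right, the same for the summed FPKM of marker lists. Control 3, maternal DSS 2 and maternal DSS 3 are high for all 6 genes and for the macrophage and T and NK cell markers; the small intestine sum of control 3 rests on Reg3g, and the colon epithelium sum lacks this split.

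Single libraries set much of the variation of the members. Maternal DSS 1 was the lowest library for 17 of the 37 tested members (45.9%), against 14.3% of all genes, and maternal DSS 2 the highest for 14 (37.8%), against 9.20% of all genes. With TPM scaling these counts were 10 and 9 of 40, and the shares of all genes were not counted there. Control 1 was the highest for 11 (29.7%, against 19.6%) and control 3 the lowest for 9 (24.3%, against 14.7%). The mean difference from controls over the 37 members was -0.19, 0.11 and 0.04 on the log2(FPKM + 1) scale in maternal DSS 1, 2 and 3. Controls 1, 2 and 3 were at 0.06, -0.02 and -0.04, so the maternal DSS libraries lay on both sides of them.

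Upstream of the members, the values do not show the level of interferon ligand transcripts as a class. Of 21 listed ligand symbols 1 had a row, Ifnz, at 0.0026 to 0.0095 FPKM, and the others were not analysed here. The receptor genes were present in every library and overlapped between groups. The interferon gamma receptor chains Ifngr1 and Ifngr2 were the most abundant, at 93.3 to 120 and 48.7 to 57.9 FPKM, and the shared type III chain Il10rb had 30.2 to 36.8. The type I chains Ifnar1 and Ifnar2 had 6.34 to 8.71 and 6.10 to 8.31, and the type III chain Ifnlr1 1.94 to 2.84. Log2 fold changes ranged from -0.17 for Ifnlr1 to 0.11 for Ifngr1, and none of the 6 had an unadjusted p under 0.05 in limma.

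The 5 listed kinase and STAT genes outside the members all had negative log2 fold changes, from -0.12 to -0.07 (0% positive, against 40.3% of all genes). None had an unadjusted p under 0.05 in limma, and the groups overlapped in each. Tyk2, a kinase bound to the type I receptor, had the most negative (-0.12). Its values were 7.14, 8.06 and 6.62 FPKM in controls against 6.35, 7.23 and 6.24.

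Of the genes that relay RNA sensing to interferon, Mavs and Traf3 were lower in maternal DSS offspring at the unadjusted threshold. Mavs, the mitochondrial adaptor that RIG-I and MDA5 signal through, had 15.6, 16.1 and 16.5 FPKM in controls against 13.4, 11.4 and 11.3. Its means were 16.1 ± 0.473 and 12.0 ± 1.19 FPKM (SD, n = 3 each), a log2 fold change of -0.39 (SE 0.09, unadjusted p = 0.0023, adjusted p = 0.62 in limma). Traf3, a ubiquitin ligase that acts after MAVS, had 4.32, 4.13 and 3.997 against 3.62, 3.16 and 2.69 FPKM (log2 fold change -0.31, SE 0.11, unadjusted p = 0.020 in limma). They were 2 of the 8 tested sensors and adaptors of the list (25%, against 5.41% of all genes lower at this threshold). The other 6 had unadjusted p-values of at least 0.05. Of the 8, 5 had negative and 3 positive fold changes (37.5% positive, against 40.3% of all genes). Tlr3, for the endosomal double-stranded RNA receptor, was also lower without overlap, by a small amount (7.45, 7.20 and 7.91 against 7.13, 7.10 and 7.09 FPKM).

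Among the remaining pathway genes the directions were mixed. In all, 9 of 92 tested pathway genes outside the 41 had an unadjusted p under 0.05 in limma, 3 higher (3.26%) and 6 lower (6.52%), close to the 2.42% and 5.41% of all genes. The lower ones, beside Mavs and Traf3, were Eif2ak2, which encodes the RNA-activated kinase PKR (11.5, 11.3 and 10.1 against 9.43, 8.69 and 6.87 FPKM; log2 fold change -0.37), Dtx3l (-0.18), the RNA helicase gene Znfx1 (-0.29) and Irf2bp1 (-0.25). The higher ones were Irf2, a factor that competes with IRF1 (23.7, 22.6 and 20.1 against 25.7, 26.1 and 24.6 FPKM; log2 fold change 0.20), Ptpn2, for a phosphatase that dampens JAK and STAT signalling (0.28), and Phf11b (0.31). Groups did not overlap in 10 lower and 2 higher of the 92, or 10.9% and 2.17%, against 9.14% and 4.92% of all genes. The others of these were Irf1 (50.8, 47.9 and 48.3 against 44.1, 47.1 and 46.0 FPKM), Gbp9 and Sp100. Of the genes below the filter, Gbp4 and Ciita were lower and Tlr7 higher without overlap, at 0.375, 0.620 and 0.540 against 0.708, 0.940 and 1.09 FPKM for Tlr7.

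With 1 library left out in turn, Parp14 alone of the 7 kept an unadjusted p under 0.05 in all 6 limma fits. Ifit3 exceeded it without control 2 at a like fold change (0.25, unadjusted p = 0.053 in limma), as did Ddx58 without control 2 (-0.24, unadjusted p = 0.070 in limma) and without maternal DSS 2 (-0.24). Gbp7 exceeded it without control 3 (-0.22) or maternal DSS 3 (-0.24). Bst2 kept a p under 0.05 in 2 of 6 fits (fold changes 0.20 to 0.35), Irgm1 in 2 (-0.30 to -0.18) and Irgm2 in 1 (-0.27 to -0.17). Each such fit has 1 library fewer. Directions of all 8 non-overlapping members were the same in these 6 fits, which the lack of overlap fixes in advance.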

How the data were processed

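RNA of 6 colon libraries (3 control, 3 maternal DSS) was analysed from 1 table of FPKM values per gene symbol, as deposited by the authors. The labels' protocols give stranded mRNA libraries. Per the submitters' processing notes, the tools were StringTie 2.1.3b, HISAT2 2.1.0, DESeq2, Trimmomatic 0.38 and FastQC 0.11.7, and the build mm10; their roles, the annotation and the strand setting are not given in the sources used. Low values multiplied by transcript length did not fall on steps of whole reads (at most 33.7% within 0.05 of a whole number), so the depth is unknown. FPKM sums ranged from 403673 to 492719.

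The 13594 genes that reached 1 FPKM in 3 or more libraries were fitted as log2(FPKM + 1) by group, using R 4.3.3 and limma 3.58.1 (trend on mean level), with Benjamini-Hochberg adjustment (threshold 0.05). The fit was tested on simulated data. Members and lists were chosen with earlier results of these data known. Values per library are given for members with an unadjusted p under 0.05, without overlap, among the 10 highest in mean FPKM, with the largest rise or fall, or among the 5 most variable; other members, and pathway genes such as Tyk2, Psmb10, B2m and H2-K1, were added after their values were seen. Alternatives were pseudocount, filter, scaling, a replicate block, leaving out each library and a transcript-length trend, the last chosen after seeing the data. Coordinates and promoters are from RefSeq on GRCm38.p6, the assembly of mm10, and transcript lengths from GENCODE M21. Several members overlap or share sequence with neighbours. A gene of the pathway list is not reported here.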

Additional observations from a re-analysis of the deposited data

How the results depend on the processing

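No member passed the adjusted threshold in limma under any alternative run; over all genes 0 passed, and from 0 to 10 when 1 library was left out. The members' median log2 fold change lay between -0.07 and 0.09 with 1 library left out. Members with an unadjusted p under 0.05 numbered 2 higher (0 with TPM scaling, 0 to 4 with a library left out) and 5 lower (3 with median-ratio scaling, 2 with the transcript-length trend removed, 2 to 6 with a library left out). The shares of all genes moved too: 2.42% higher and 5.41% lower became 0.812% and 6.96% with TPM scaling, 4.39% and 4.73% without the length trend, 4.07% and 4.18% under median-ratio scaling, and from 1.18% to 7.83% and from 1.76% to 17.2% with a library left out, both highest without maternal DSS 1. Members without overlap numbered 3 higher (3 to 10 with a library left out) and 5 lower (8 with TPM scaling, 2 with the length trend removed, 5 to 9 with a library left out). The shares of all genes, 4.92% and 9.14%, became 1.67% and 12.4% with TPM scaling, 7.18% and 8.07% with the length trend removed, and 6.74% to 16.0% and 10.96% to 29.3% with a library left out, where fewer libraries make overlap rarer. Maternal DSS 1 was lowest for 17 of 37 members, for 11 of the 24 tested with an FPKM of at least 5 required, for 10 of 40 with TPM scaling and for 17 to 22 with a library left out. Maternal DSS 2 was highest for 14 of 37, and for 8 of 24, 9 of 40 and 14 to 16 in the same order. The shares of all genes with these libraries lowest or highest were not counted under the alternatives. Pathway genes numbered 3 higher (1 with TPM scaling, 0 to 16 with a library left out) and 6 lower (3 with median-ratio scaling, 1 to 9 with a library left out). TPM scaling moved the median of all genes from -0.04 to -0.14.

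With TPM scaling the log2 fold changes of Irf7 (-0.069), Zbp1 (-0.01), Isg15 (-0.018), Oas1a (-0.035) and Psmb9 (-0.041) reversed. With the length trend removed those of Ifih1 (0.0041) and Isg15 (-0.0012) did. With a library left out, fold changes crossed 0 for Irf7 (-0.049 to 0.14), Zbp1 (-0.10 to 0.43), Isg15 (-0.19 to 0.38), Oas1a (-0.021 to 0.20), Ifi47 (-0.28 to 0.17), Psmb8 (-0.072 to 0.46) and Psmb9 (-0.071 to 0.28). The cause was not tested.

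The replicate number did not pair the libraries: deviations from the group means of same-numbered libraries correlated at 0.276, -0.384 and 0.404. With the replicate block, 2 members were higher and 4 lower at an unadjusted p under 0.05 in limma, against 3.68% and 8.67% of all genes; Irgm1 (0.053) and Irgm2 (0.055) no longer passed and Stat2 did. Of the pathway genes 8 were higher and 9 lower. The depth is unknown, so counting error could not be given.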
